A study of Mus musculus with 4 samples.

Results

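Iron and heme handling genes were examined in perivascular adipose tissue (PVAT) after endovascular injury. The genes were chosen by symbol, *Hmox1*, *Blvrb*, *Alas1*, *Hp*, *Fth1*, *Ftl1*, *Tfrc*, *Slc11a1*, *Slc40a1* and *Cp*, and all 10 were among the 12661 genes of the table. RNA-seq had been done on the outer tissues around the femoral artery of 11-week-old wild type C57BL/6 female mice, all of them ovariectomized. The injury group had a spring wire of 0.38 mm in diameter inserted into the femoral artery and the sham group had a sham operation, and tissue was taken 48 h later. Each group had 2 libraries. The labels do not say whether each library came from 1 animal, so p-values measure only the spread between these libraries. Each value is the number deposited for a gene in a library, on a signed, log-like scale whose base and zero are not given in the sources used here. Values are therefore given in deposited units, differences are not turned into fold changes, and levels cannot be ranked between genes. The read depth behind a value is unknown, so no detection limit is given.

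Iron enters most cells as transferrin through the transferrin receptor, is held in ferritin, and leaves through ferroportin with the help of copper-containing ferroxidases. Heme is built in a pathway that starts with an ALAS enzyme in mitochondria and is broken down by heme oxygenase to biliverdin, carbon monoxide and iron. Macrophages that clear dying red cells recycle most of the body's iron by this route. Several of these genes are tuned after transcription, by iron regulatory proteins that bind a hairpin called the iron-responsive element (IRE). In the 5′ untranslated region the bound hairpin blocks translation, and in the 3′ untranslated region of the transferrin receptor mRNA it protects the transcript from decay.

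The IRE sequences of the members are shown because the ferritin, receptor and exporter results below concern the transcripts that carry them. A hairpin of a bulged C, 5 paired bases, a loop of CAGTG with A, C or T after it, and the 5 partners of the stem (G-T pairs allowed, transcript strand only) was searched for in the untranslated regions of the GENCODE coding transcripts of mm9. It was found in the 5′ untranslated regions of *Fth1*, *Ftl1* and *Slc40a1* and, at 4 places, in the 3′ untranslated region of *Tfrc*. Such a match was held by 0.111% of the 19854 genes with a 5′ untranslated region and by 0.462% of the 19915 genes with a 3′ one. In the wider list described below, *Alas2* and *Bola3* held one too. Hairpins that depart from this pattern were not searched for, so the matches are no full count of IREs. The search was added after the values were seen. The loop is in capitals, with 6 bases of flank on each side of the hairpin, and coordinates are those of mm9.
*Fth1*, chr19:10057222-10057250, plus strand: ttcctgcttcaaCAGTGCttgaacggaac
*Ftl1*, chr7:52715149-52715177, minus strand: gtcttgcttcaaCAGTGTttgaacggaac
*Slc40a1*, chr1:45982310-45982338, minus strand: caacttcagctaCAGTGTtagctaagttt
*Tfrc*, chr16:32631305-32631333, plus strand: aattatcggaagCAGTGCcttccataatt
*Tfrc*, chr16:32631684-32631712, plus strand: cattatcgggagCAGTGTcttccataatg
*Tfrc*, chr16:32631749-32631777, plus strand: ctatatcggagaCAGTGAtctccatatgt
*Tfrc*, chr16:32631796-32631824, plus strand: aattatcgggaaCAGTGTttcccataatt

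Injury and sham libraries were compared gene by gene with limma over all 12661 genes. Of the 10 members, *Cp* alone fell and none rose at an adjusted p-value under 0.05 (Benjamini-Hochberg), beside a background of 7.43% of all genes called (3.67% lower and 3.76% higher). At an adjusted p-value under 0.1 there were 3 members, with *Ftl1* and *Slc11a1* added, beside 18.3% of all genes. At an unadjusted p-value under 0.05 there were 4 members, *Hmox1*, *Ftl1*, *Slc11a1* and *Cp*, beside 29.5% of all genes. These 4 were also the members whose groups did not overlap, 3 with both injury libraries above both sham libraries and 1 below. Groups that do not overlap were found in 61.9% of all genes (31.6% with injury above and 30.3% with injury below), so the members' share of 40% was under the background. The median difference of the members was 0.21 deposited units, and that of all genes was 0.0085. It rested on single libraries, with -0.014 when sham replicate 2 was left out and 0.42 when injury replicate 2 was. An exact permutation test of 1 gene with 2 libraries against 2 cannot go below p = 0.333, so the limma p-values rest on variance shared across genes. With a library left out, the calls over all genes went from 941 to 0 without sham replicate 1, to 1 without sham replicate 2, to 284 without injury replicate 1 and to 1790 without injury replicate 2, and the calls of single members below are to be read beside these counts.

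**Figure D1:**
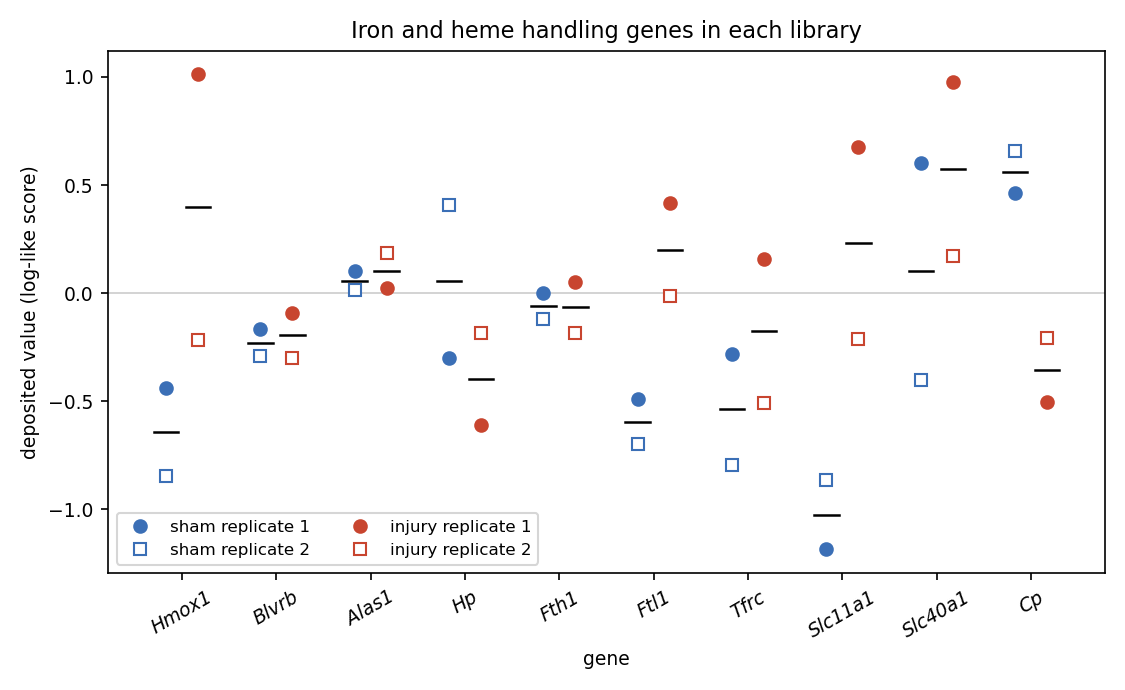
Deposited value (y axis, a log-like score) of each of the 10 genes (x axis) in each library, with sham in blue, injury in red, replicate 1 as filled circles, replicate 2 as open squares and group means as black bars. Both injury values of *Cp* lie under both sham values, the injury values of *Hmox1*, *Ftl1* and *Slc11a1* lie above their sham values, and the remaining 6 genes overlap.

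Ceruloplasmin, encoded by *Cp* (chromosome 3 of mm9, 19857054 to 19909145), is the ferroxidase that oxidizes iron as it leaves the cell. *Cp* stood at 0.46 and 0.66 after sham operation, against -0.50 and -0.21 after injury. Both injury libraries were low, and the gap between the groups, 0.67 deposited units, was wider than the gap between replicates in either group. Injury minus sham was -0.91 (SE 0.17, 95% interval -1.34 to -0.49, adjusted p = 0.0410 from limma). A lower difference was found in 4.32% of all genes. The call held in each fit of all 4 libraries that was run (adjusted p from 0.0379 to 0.0467 from limma). It was lost without sham replicate 1 (adjusted p = 0.191), without sham replicate 2 (0.169) and without injury replicate 1 (0.0922), and held without injury replicate 2 (0.0232, all from limma).

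*Heph*, which encodes hephaestin, the membrane-bound paralogue of ceruloplasmin, was lower as well. It stood at 0.70 and 0.69 after sham operation and at -0.94 and -0.22 after injury. Injury minus sham was -1.28 (SE 0.26, adjusted p = 0.0470 from limma), and with a robust variance prior it missed the threshold (adjusted p = 0.0508). Without sham replicate 1, sham replicate 2 or injury replicate 1 it missed the threshold too (limma adjusted p = 0.238, 0.168 and 0.0607).

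Ferroportin, encoded by *Slc40a1* (chromosome 1, 45964915 to 45982439), is the iron exporter that both ferroxidases serve. *Slc40a1* read 0.60 and -0.40 in sham tissue, 0.98 and 0.17 in injured tissue. The groups overlapped, and in each group replicate 1 was the higher library, by 0.81 between the injury libraries and by more between the sham libraries. The difference was 0.47 with a 95% interval from -0.55 to 1.50 (adjusted p = 0.492 from limma), and single libraries moved it from -0.029 (without sham replicate 2) to 0.97 (without sham replicate 1). The interval leaves changes of either sign possible at this number of libraries.

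The marker lists of several cell types moved beside *Cp* and *Heph*. Over all genes 3.67% were called lower and 29.5% had an unadjusted p under 0.05 from limma. Both injury libraries lay below both sham libraries in 30.3% of all genes and above them in 31.6%. Of the 5 smooth muscle markers, 4 were called lower, and the list median ran from 1.03 to 1.72 in the sham libraries and from -1.55 to -0.21 in the injury libraries. Of the 6 fibroblast markers 3 were called lower, and the list median went from 0.0026 to 0.27 in sham and from -0.75 to -0.35 in injury libraries. *Pdgfra* alone of these had both injury libraries above both sham libraries (difference 0.41, adjusted p = 0.271 from limma). Of the 6 endothelial markers 2 were called lower, with list medians of 0.71 to 0.82 and of -0.14 to -0.086. The skeletal muscle list, with 5 of 8 markers in the table, had medians of 0.79 and -0.075 in sham and of -0.22 and -0.40 in injury libraries, with 0 called by limma and 2 at an unadjusted p under 0.05. In bulk tissue fewer cells of a type and less RNA per cell cannot be told apart, and the part of these cell types in the *Cp* and *Heph* values was not tested. All 10 pan-adipocyte markers were in the table, with 1 (*Plin1*) called lower, 5 below the sham libraries in both injury libraries and none above. Their list median was 0.26 and 0.34 in sham tissue, -0.15 and 0.29 in injured tissue, so the groups overlapped.

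**Figure D2:**
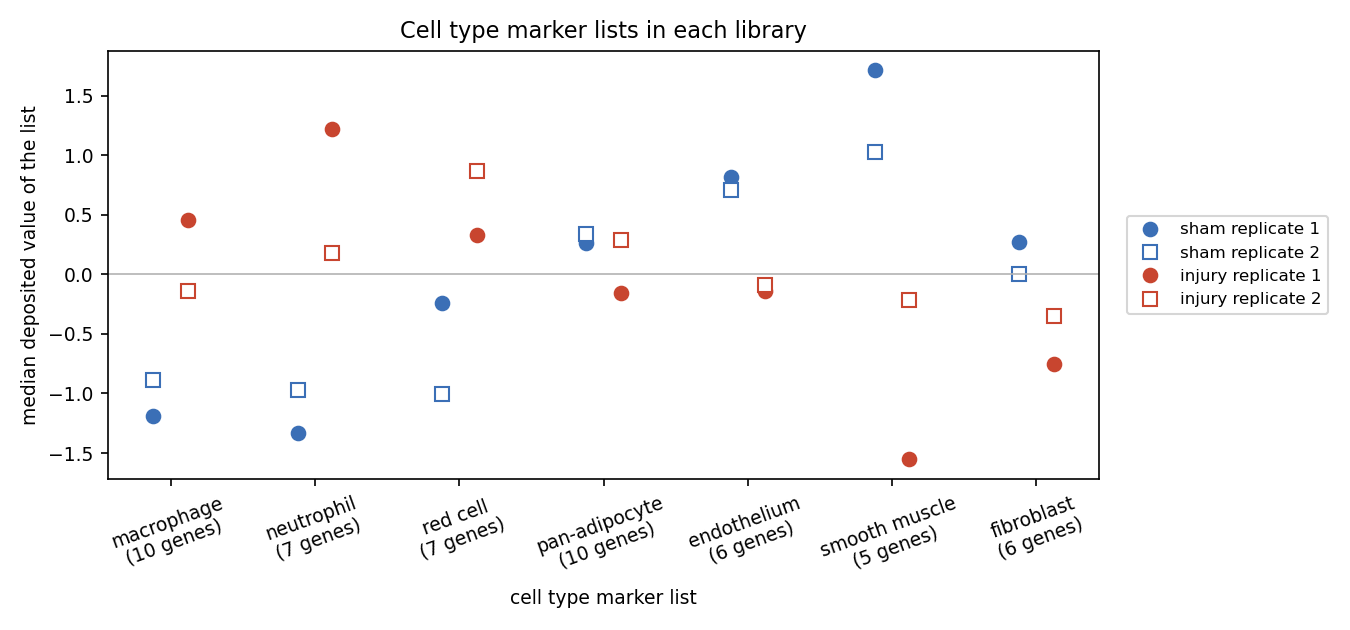
Median deposited value (y axis) of the cell type marker lists named on the x axis (with the number of genes analysed) in each library, colours and symbols as in the plot of members by library. The lists of brown adipocytes, skeletal muscle and hepatocytes are not plotted. Of the lists plotted, those of macrophages, neutrophils and red cells are higher in both injury libraries. Smooth muscle, endothelial and fibroblast lists are lower in both, and the pan-adipocyte list overlaps.

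Natural resistance-associated macrophage protein 1, encoded by *Slc11a1* (chromosome 1, 74421777 to 74432636), moves iron and other divalent metals across the phagosome membrane of macrophages and neutrophils. *Slc11a1* was at -1.19 and -0.87 in sham tissue, and reached 0.68 and -0.21 in injured tissue. Both injury libraries lay above both sham libraries, and injury replicate 1 was the higher by 0.89. The difference of 1.26 was the highest of the 10 members (standard error 0.31, 95% interval 0.47 to 2.04), and it missed the threshold over all genes (adjusted p = 0.0703 from limma). A higher difference was found in 2.83% of all genes. Leaving out injury replicate 1 gave 0.81 and leaving out injury replicate 2 gave 1.70, the only one of these fits in which it was called (adjusted p = 0.0106 from limma).

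Heme oxygenase 1, encoded by *Hmox1* (chromosome 8, 77617490 to 77624495), is the inducible enzyme that opens the heme ring. *Hmox1* measured -0.44 and -0.85 with sham operation, 1.01 and -0.22 with injury. The groups did not overlap, but the gap of 1.23 between the injury libraries was wider than the gap of 0.22 between injury replicate 2 and the nearer sham library. Injury minus sham was 1.04 (SE 0.41, 95% interval 0.0085 to 2.07, adjusted p = 0.167 from limma). It moved with injury replicate 1, being 0.43 without that library and 1.65 without injury replicate 2, where it was called (adjusted p = 0.0139 from limma). The 3 genes whose pattern over the 4 libraries was nearest to that of *Hmox1* were *Ccl8*, *Itgal* and *Dusp5*. Their Euclidean distances were 0.107, 0.185 and 0.206 after each gene was centred on its own mean. They were picked by distance, which fixes that their values follow those of *Hmox1*.

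The list of 10 macrophage markers was higher in both injury libraries, with replicate 1 the higher of them, as for *Slc11a1* and *Hmox1*. In the sham libraries its order was that of *Slc11a1* and the reverse of that of *Hmox1*. Of its markers, 4 were called higher, 8 lay above the sham libraries in both injury libraries and 1, *Cd163*, lay below (all genes: 3.76% called higher, 31.6% above and 30.3% below). The list median was -1.19 and -0.89 in the sham libraries, 0.46 in injury replicate 1 and -0.14 in injury replicate 2. The neutrophil list, with 7 of 9 markers in the table and 2 called higher, had medians of -1.34 and -0.97 in sham and of 1.22 and 0.18 in injury libraries. Injury replicate 1 was above injury replicate 2 in 8 of the 10 macrophage and in all 7 neutrophil markers analysed. The part of these cells in the *Slc11a1*, *Hmox1* and *Ftl1* values was not tested.

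The other members of the heme route moved less. *Blvrb* (chromosome 7, 28232997 to 28251163), which encodes biliverdin reductase B, was at -0.17 and -0.29 after sham operation, -0.093 and -0.30 after injury. Its groups overlapped, and the difference of 0.034 had a 95% interval from -0.34 to 0.41 (adjusted p = 0.898 from limma). *Alas1* (chromosome 9, 106135786 to 106150457) encodes the ALAS enzyme of most tissues, which sets the pace of heme synthesis. Its values of 0.10 and 0.012 after sham operation and of 0.022 and 0.18 after injury overlapped, with a difference of 0.046 and a 95% interval from -0.31 to 0.40 (adjusted p = 0.855 from limma). These intervals are narrower than that of *Hmox1*, and the replicates of both genes lay within 0.21 deposited units of each other in each group.

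Haptoglobin, encoded by *Hp* (chromosome 8, 112099030 to 112103072), binds free hemoglobin and is made by liver and by fat. *Hp* gave -0.30 and 0.41 in sham tissue, then -0.61 and -0.19 in injured tissue. The groups overlapped, with sham replicate 2 standing above the other libraries. The difference was -0.45 (95% interval -1.16 to 0.25, adjusted p = 0.342 from limma). Leaving out sham replicate 2 gave -0.098 and leaving out sham replicate 1 gave -0.81. Of the 8 hepatocyte markers 1, *Apoa2*, was in the table, and the others were not analysed here.

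Ferritin is a shell of heavy and light chains. *Ftl1* (chromosome 7, 52713314 to 52715254), the light chain gene, lay at -0.49 and -0.70 in sham tissue, compared with 0.41 and -0.013 in injured tissue. Both injury libraries were above both sham libraries, and the gap of 0.48 between the groups was wider than the gap between either pair of replicates. Its difference of 0.80 (standard error 0.19, 95% interval 0.31 to 1.28) missed the threshold over all genes (adjusted p = 0.0665 from limma). Leaving out injury replicate 1 gave 0.58 and leaving out injury replicate 2 gave 1.01, where it was called (adjusted p = 0.0266 from limma). *Fth1* (chromosome 19, 10057193 to 10059582), the heavy chain gene, lay at -0.00045 and -0.12 in sham tissue, compared with 0.053 and -0.19 in injured tissue. The groups overlapped, and the difference of -0.0070 had a 95% interval from -0.39 to 0.38 (adjusted p = 0.982 from limma).

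Both ferritin transcripts carry the 5′ IRE printed above, and their values were set against each other library by library. *Ftl1* minus *Fth1* came to -0.49 and -0.58 in sham tissue, 0.36 and 0.17 in injured tissue. The groups did not overlap, and the change of 0.80 was larger than the SD between replicates, 0.064 in sham and 0.13 in injury libraries. The exact permutation test, two-sided, gave its smallest possible p of 0.333 (0.556 after Benjamini-Hochberg adjustment over the 5 pairs of genes compared in this way). The pairs were chosen after their values were seen. What 0 stands for on this scale is not known, so a value of *Ftl1* minus *Fth1* is no ratio of transcripts, and with the base of the scale unknown its change is not turned into a fold. Both concern transcripts and not the protein chains. Both genes have near-identical processed copies in the genome, among which the counting could have split reads.

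*Tfrc* (chromosome 16, 32609006 to 32632880), the transferrin receptor gene with the IRE matches in its 3′ untranslated region, was at -0.28 and -0.80 in sham tissue. In injured tissue it was at 0.16 and -0.51. The groups overlapped, and replicate 1 was the higher library in both. The difference was 0.36 (95% interval -0.35 to 1.08, adjusted p = 0.446 from limma), and it was 0.032 without injury replicate 1. *Tfrc* minus *Slc40a1*, import against export, came to -0.88 and -0.40 in sham tissue, -0.82 and -0.68 in injured tissue, and the groups overlapped (change -0.11, exact permutation p = 1, two-sided). Of the remaining pairs, *Hmox1* minus *Blvrb* changed by 1.01, *Cp* minus *Heph* by 0.36 and *Slc11a1* minus *Hmox1* by 0.22 (exact permutation p = 0.333, 0.333 and 0.667).

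**Figure D3:**
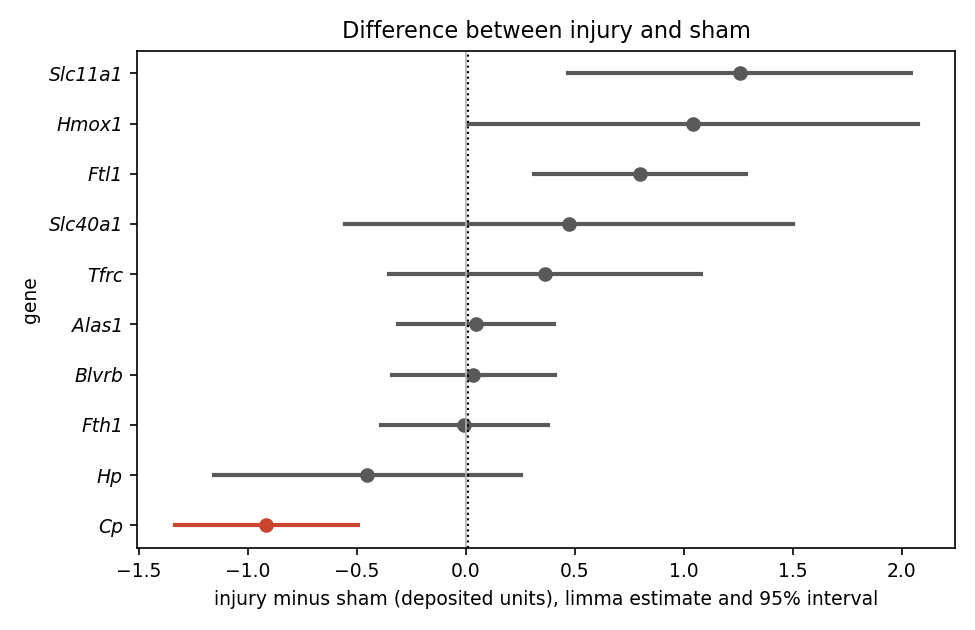
Injury minus sham in deposited units (x axis) for each of the 10 genes (y axis), as the limma estimate with its 95% interval, red where the adjusted p-value was under 0.05, with the median of all genes as a dotted line. *Cp*, at -0.91, is in red, and the intervals of *Slc11a1*, *Ftl1* and *Hmox1* lie above 0 although these genes missed the adjusted threshold.

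The members differed in how far single libraries set their values. In 6 of the 10 members replicate 1 was above replicate 2 in both groups, and over all genes in 3069 of 12661. Injury replicate 1 was above injury replicate 2 in 7 members, and over all genes in 6194 of 12661. The median gap between injury libraries was 0.42 among the members and 0.19 among all genes. For the sham libraries these medians were 0.26 and 0.15. The differences of *Fth1*, *Blvrb*, *Alas1* and *Slc40a1* changed sign when single libraries were left out, while those of *Cp*, *Slc11a1*, *Ftl1*, *Hmox1*, *Tfrc* and *Hp* kept theirs in all 4 such fits.

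**Figure D4:**
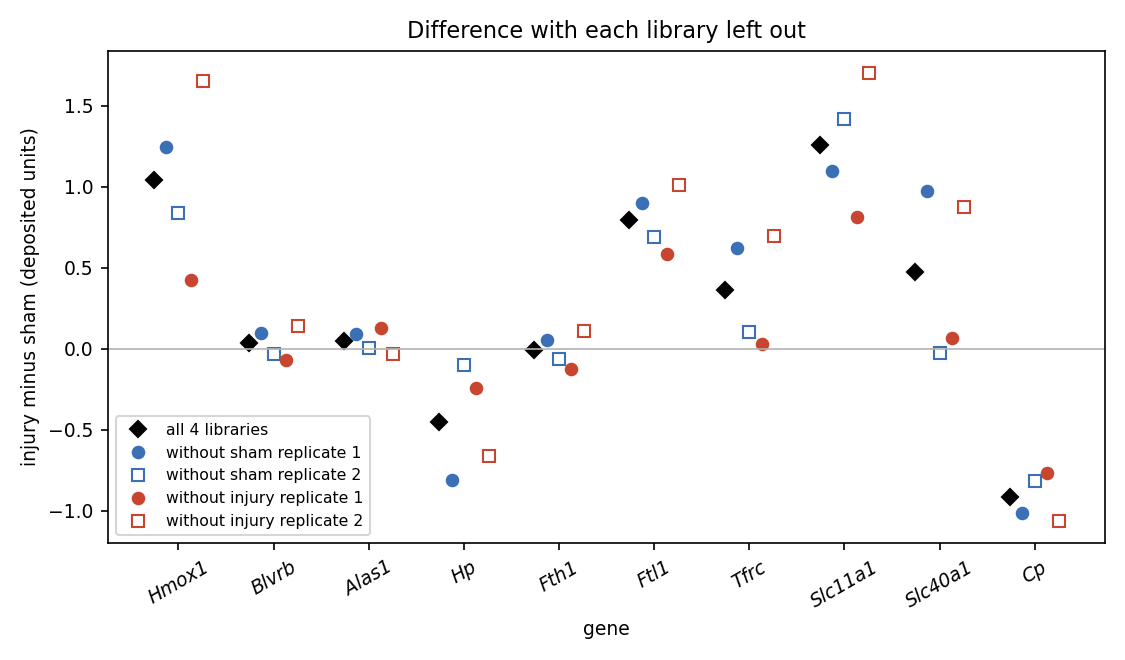
Injury minus sham in deposited units (y axis) for each of the 10 genes (x axis) with all 4 libraries (black diamonds) and with each library left out in turn (coloured symbols). *Cp* ranges from -1.06 to -0.77, whereas *Hmox1* ranges from 0.43 to 1.65 and *Slc40a1* from -0.029 to 0.97.

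A wider list of 78 genes of iron and heme biology, the 10 members included, had 69 genes in the table. Of these, *Glrx5* and *Slc25a37* rose and *Cp*, *Heph* and *Ncoa4* fell, 5 calls or 7.25% of the list beside 7.43% of all genes. The median difference was 0.080 in the list and 0.0085 over all genes. The count was 0 without sham replicate 1, sham replicate 2 or injury replicate 1 and 11 without injury replicate 2, and 3 with a robust variance prior, and the median was 0.14 without sham replicate 2. By group, the genes of mitochondrial iron and iron-sulfur cluster assembly had the highest median, 0.45, and 13 of its 15 genes had both injury libraries above both sham libraries, where 31.6% of all genes did. The group of iron export had the lowest, -0.91 over 3 genes.

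In the mitochondrial group, *Glrx5*, a glutaredoxin that hands on iron-sulfur clusters, went from -0.35 and -0.33 in sham tissue to 0.34 and 0.48 in injured tissue. The rise was 0.75 (SE 0.14, adjusted p = 0.0407 from limma). *Slc25a37*, which encodes mitoferrin 1, the iron carrier of the inner membrane, went from -0.29 and -0.41 in sham tissue to 0.43 and 0.28 in injured tissue. The rise was 0.71 (SE 0.14, adjusted p = 0.0481 from limma). *Isca2*, a scaffold for cluster assembly, had the highest difference of the group (0.76, adjusted p = 0.0676 from limma) and *Hscb*, a co-chaperone, the lowest (-0.20, adjusted p = 0.398). When any 1 library was left out, *Glrx5* missed the threshold, and *Slc25a37* missed it in all such fits but that without injury replicate 2 (adjusted p = 0.0438 from limma). Of the 8 brown adipocyte markers, whose cells are rich in mitochondria, 5 were called higher, beside 3.76% of all genes. The list median ran from 0.75 to 1.05 in sham and from 1.94 to 1.98 in injury libraries. The part of brown adipocytes in the mitochondrial group was not tested.

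In the storage group, *Ncoa4*, the receptor that delivers ferritin to the lysosome for iron release, went from 0.40 and 0.57 in sham tissue to -0.22 and -0.19 in injured tissue. Its difference of -0.69 was called at the edge of the threshold (adjusted p = 0.0495 from limma). The call was lost with quantile normalization, with columns scaled to equal spread and with a robust prior (adjusted p = 0.0566, 0.0525 and 0.0512 from limma) and in each fit without 1 library. *Ftl1* was the highest of this group.

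The remaining groups had no call, and the genes named are the highest and lowest of each. Counts at an unadjusted p under 0.05 from limma, here and in the next paragraph, stand beside 29.5% of all genes. In heme synthesis (9 genes, 1 at an unadjusted p under 0.05) *Alas2*, the ALAS enzyme of red cell precursors, differed by 1.35 (adjusted p = 0.0664) and *Urod* by -0.13 (adjusted p = 0.576, all from limma). *Alas2* was at -0.28 and -1.01 in sham tissue, 0.36 and 1.05 in injured tissue, so injury replicate 2 was its high library, unlike for *Hmox1*. The red cell list, with 7 of 11 markers in the table, ran in the same order, with medians of -0.24 and -1.01 in sham and of 0.33 and 0.87 in injury libraries. It includes *Alas2* and pairs of hemoglobin genes with identical values. Of its rows 2, *Hbb-b2* and *Hbb-bt*, with the same 4 values, were called higher, beside 3.76% of all genes. With identical rows counted once, 1 of 4 rows was called. The part of blood in the heme genes was not tested.

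In heme and hemoglobin transport (10 of 12 genes in the table, 3 at an unadjusted p under 0.05), *Cd163*, the macrophage receptor for haptoglobin bound to hemoglobin, had the lowest difference, -0.81 (adjusted p = 0.191 from limma). Its sham values were 0.21 and -0.066 and its injury values -1.25 and -0.23. *Abcb10*, a mitochondrial transporter, had the highest, 0.40 (adjusted p = 0.129). In iron uptake (13 of 15 genes, 3 at an unadjusted p under 0.05) *Slc11a1* was the highest and *Lcn2*, which encodes the siderophore binder lipocalin 2, the lowest, with -0.97 (adjusted p = 0.0594). In heme degradation (4 genes, 1 at an unadjusted p under 0.05) *Hmox1* was the highest and *Blvrb* the lowest. All 4 had higher means after injury, as 6450 of all 12661 genes had, though that of *Blvrb* changed sign with single libraries left out (-0.069 to 0.14). The group of iron sensing and the hepcidin axis had 7 of 11 genes in the table, 2 at an unadjusted p under 0.05 from limma. In it *Fam132b*, which encodes erythroferrone, differed by 0.53 (adjusted p = 0.268) and *Bmp6*, an inducer of hepcidin, by -0.66 (adjusted p = 0.117, both from limma). Of the regulators of *Hmox1* transcription (3 genes, 1 at an unadjusted p under 0.05), *Bach1*, the heme-sensing repressor, differed by 0.81 (adjusted p = 0.0809) and *Nfe2l2*, the activator NRF2, by -0.11 (adjusted p = 0.751, all from limma).

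**Figure D5:**
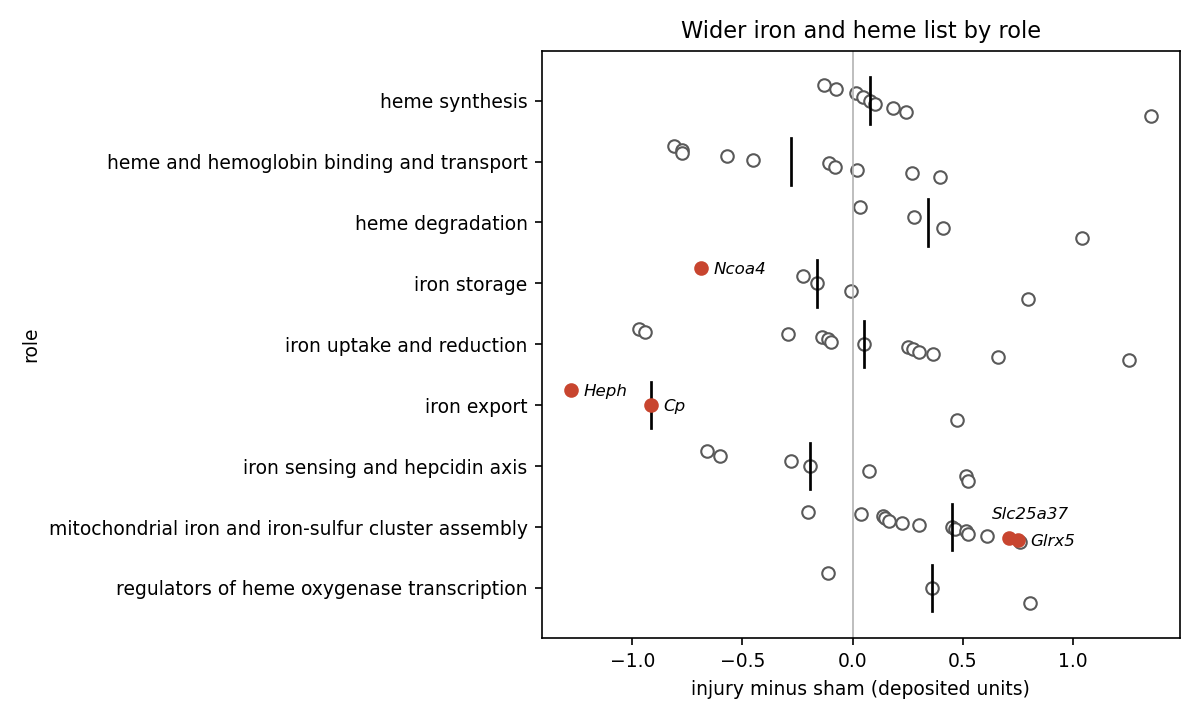
Injury minus sham in deposited units (x axis) of the 69 genes of the wider list by role (y axis), each circle a gene, red and named where the adjusted p-value was under 0.05, with a black bar at the median of each role. *Cp* and *Heph* lie low in iron export and most genes of the mitochondrial group lie above 0.

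Promoter windows from RefSeq (GRCm38.p6, 250 bases before to 50 after the start) were found for 7 of the 10 members, 12 windows in all, and not for *Hmox1*, *Hp* and *Slc40a1*. Letters of 3 motifs were searched on both strands. The core of the antioxidant response element, TGACNNNGC, was in none of the members' windows and in 12.4% of all 32851 windows. The C/EBP motif TTGCNNAA was in 1 window of *Cp* and 1 of *Fth1* (10.8% of all), and the STAT palindrome TTCNNNGAA in 1 window of *Alas1* (8.30% of all). These matches are a description of letters in the windows.

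The genes nearest to *Cp* in pattern were *St6galnac3*, *2900041M22Rik* and *Adgra3*, at distances of 0.0481, 0.0509 and 0.0525 over the 4 libraries. The choice by distance fixes that their values follow those of *Cp*.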

How the data were processed

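Total RNA (480 ng per sample) from 2 sham and 2 injury samples had been made into stranded mRNA libraries and sequenced as paired-end reads. Per the submitters' processing notes and the paper's methods, the authors used FastQC 0.11.8, Cutadapt 1.18, Trimmomatic 0.39, STAR 2.6.0a with mm9, featureCounts and DESeq2 1.28.0. The values the authors deposited are a signed, log-like score for 12661 genes. The step from reads to this score and the filter on genes are not given in the sources used here. The values run from -2.27 to 6.45, the column medians lie near 0, and depth is unknown, so no filter on low values was applied.

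The difference between groups was fitted with limma 3.58.1 in R 4.3.3 (lmFit and eBayes, group as the only term, no trend, two-sided, all 4 libraries) and adjusted by Benjamini-Hochberg over all genes, with a threshold of 0.05. Each gene had 2 residual and 3.48 prior degrees of freedom. The script was tested on simulated data. The members, gene lists, tests and alternatives were chosen with earlier results of these data known. All members were named. Of the wider list the called genes and the highest and lowest of each role were named. For *Hmox1* and the called member the 3 genes nearest in pattern were named. Alternatives were leaving out each library, a replicate block, a robust prior, 2 rescalings of the columns (to the same quantiles or to equal spread), identical rows counted once and a threshold of 0.1. Gene positions are from GENCODE vM1 on NCBIM37, the assembly of mm9. Python 3.11.15 was used for tables (numpy 2.4.6, pandas 2.3.3) and figures (matplotlib 3.10.9).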

Additional observations from a re-analysis of the deposited data

How the results depend on the processing

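Over all genes 941 were called, and 861 to 1128 without the block in the fits of all 4 libraries at the 0.05 threshold. With the replicate block 684 were called. The replicate numbers are shared only by name (correlation of the deviations of replicate 1 between groups, -0.094), and with the block 1 member (*Cp*) and 2 genes of the wider list were called (*Cp* and *Heph*), while *Glrx5* and *Slc25a37* had adjusted p-values of 0.0633 and 0.0679 and *Ncoa4* of 0.0742 from limma. With a robust variance prior 3 of the wider list were called. At an adjusted p-value under 0.1, by construction, 2317 genes (18.3%), 3 members (*Cp*, *Ftl1* and *Slc11a1*) and 16 genes of the wider list were called, against 1 and 5 at 0.05. With each library left out, where the remaining sample of that group is assumed to vary like the other group, the calls ran from 0 to 1790 genes, from 0 to 4 members and from 0 to 11 genes of the wider list. They were lowest without a sham library (0 genes without sham replicate 1 and 1 without sham replicate 2), 284 without injury replicate 1, and highest without injury replicate 2. The median difference then ran from -0.014 to 0.42 for the members and from 0.052 to 0.14 for the wider list. In these fits *Fth1* ran from -0.13 to 0.11, *Slc40a1* from -0.029 to 0.97, *Blvrb* from -0.069 to 0.14 and *Alas1* from -0.035 to 0.13. No member changed sign in the fits of all 4 libraries. Quantile normalization, scaling to one spread and counting identical rows once changed no member's call. The causes of these shifts were not tested. Depth is unknown, and 2 libraries per group limit the precision.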
